A study of Mus musculus with 4 samples.

Results

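The genes described here are 56 receptors and ligands known from the guidance of growing axons: 11 ephrin receptors, 8 ephrins, 7 netrin receptors and netrins, 7 Robo receptors and Slits, 8 plexins, 2 neuropilins, 11 semaphorins and 2 Dscam proteins. The family was chosen on the values of Epha2 and Unc5b, which were higher in the contrast described here, and all 56 symbols of the list matched probes on the array. Of them 34 entered a test that held 17968 genes in all. The contrast that the choice used is the only one in the study, so every change below is a description of these arrays and supports no statement about the family.

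RNA came from bone marrow-derived dendritic cells (BMDC), grown for 6 days from femur and tibia marrow of C57BL/6 mice, labelled female and 8 weeks old, in 20 ng/mL GM-CSF, the cytokine that turns marrow precursors towards dendritic cells, after which the CD11c+ cells were taken. RFF11 cells carried loxP-flanked Rbpj alleles (Rbpj fl/fl) and CD11c-cre, a recombinase driven by the promoter of the dendritic cell integrin Itgax. RFF cells, the controls, carried the same floxed alleles without the cre. Each genotype had 2 one-colour arrays made from RNA that the labels describe as pooled from 4 mice, and no source states that the arrays were separate pools. If they were not, the replicate error and the p-values reflect technical spread alone. No array held the cre with intact Rbpj, and loss of Rbpj and presence of the cre cannot be told apart. The tissue is a bulk culture, in which fewer cells of a type and less RNA per cell cannot be told apart.

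In the nervous system these proteins steer growing axons by attraction and repulsion. Ephrins are bound to the membrane and signal to ephrin receptor tyrosine kinases on the neighbouring cell, netrins act through Dcc and the Unc5 receptors, Slits through Robo receptors, and semaphorins through plexins, with neuropilins as co-receptors for the secreted class. In the immune system the same families are known for contact between dendritic cells and T cells and for leukocyte movement, and in blood vessels several of them act beside Notch, the pathway that uses Rbpj as its DNA-binding protein.

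Each level below is the log2 of a probe's signal minus that of the array's 75th percentile, so a gene at that percentile has the level 0. The scanner software flags spots that are well above background, which held for 58.4% and 57.7% of 43020 gene spots in RFF11 cells and for 55.2% and 58.1% in RFF cells. Rbpj, the floxed gene, read 1.37 and 1.44 on RFF11 replicates 1 and 2, against 2.69 and 2.61 on RFF replicates 1 and 2. That is a log2 change of -1.25 (SE 0.06), or 42.1% of the RFF signal, and the sources used here do not place the probe inside or outside the deleted part of the gene, so it may check the labels only in part. Itgax read 6.65 and 6.45 in RFF11 cells and 6.69 and 6.63 in RFF cells. Of 10 dendritic cell markers listed, the array held 9, and all 9 were well above background on all 4 arrays. So were all 5 macrophage markers that the array held, and the flags alone do not tell these cell types apart.

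Of the 56 axon guidance genes, 31 (55.4%) were well above background on all 4 arrays, 19 (33.9%) on none and 6 on 1 to 3 arrays. Among all 19751 named genes on the array the corresponding shares were 62.2% on 4 arrays and 30.6% on none. Both neuropilins, both Dscam proteins, 6 of 8 plexins and 7 of 11 semaphorins were measured on all 4 arrays, whereas 5 of 11 ephrin receptors, 4 of 7 netrin family genes and 4 of 7 Robo and Slit genes were on none. The ephrin receptors Epha3, Epha4, Epha7, Ephb1 and Ephb4, ephrin Efnb3, the netrin receptors Unc5c and Neo1, the netrins Ntn1 and Ntn4, Robo1, Robo2, Robo3, Slit3, the plexins Plxna3 and Plxnb1, and the semaphorins Sema3a, Sema3c and Sema6a were the 19. A gene not well above background has a level too dim for these arrays to rank, which does not show that it is absent.

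**Figure D1:**
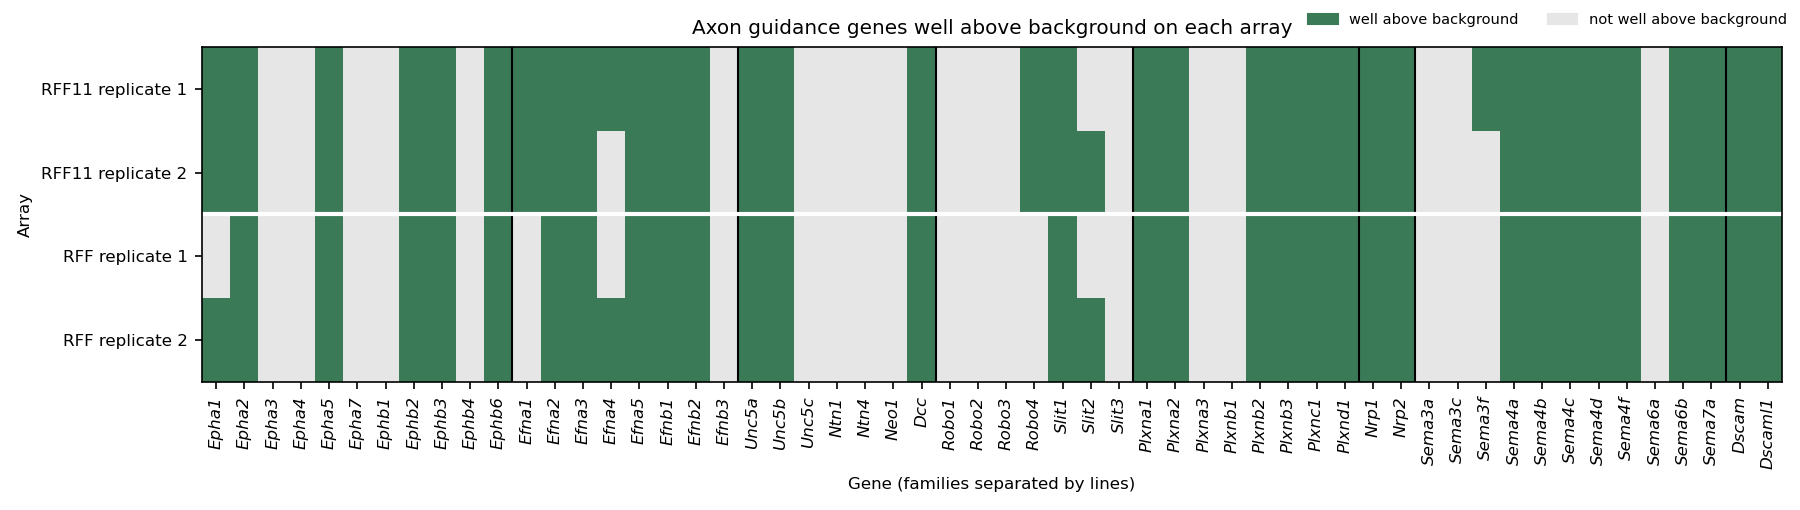
Each column is 1 of the 56 axon guidance genes, ordered by family, and each row is 1 array, with RFF11 above RFF; green marks a probe well above background and grey one that was not. Most columns are of one colour, 31 green and 19 grey from top to bottom, and Efna1 and Robo4 are green on the 2 RFF11 arrays alone.

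The test took genes whose probe passed that background flag in both replicates of RFF11, of RFF or of both, which 34 of the 56 did. Of these 34, 3 passed an adjusted p of 0.05 in the limma fit over all genes, where 1.88% of all genes tested passed. They were Epha2 and Unc5b, higher in RFF11 cells (1.04% of all genes tested passed in that direction), and Dscaml1, lower in RFF11 cells (0.840%). Their adjusted p lay between 0.0165 and 0.0400. As the family was chosen in this contrast, nothing is read from these shares. The median change was -0.09 over the 34 tested, against -0.01 over all genes tested, and -0.10 over the 31 well above background on all arrays, against -0.01 over all such genes. Over all 56, dim probes included, it was -0.09, against -0.07 over all genes without a filter. Without any 1 of the 4 arrays none of the 3 passed, with the lowest adjusted p among them at 0.0885, although each kept its direction and a similar size. Without the filter on dim probes none passed either (limma adjusted p = 0.260 for each).

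Epha2 is a receptor for A-type ephrins known in epithelial cells, where it acts in adhesion and repulsion between cells. It read -3.02 and -2.72 on RFF11 replicates 1 and 2, against -5.06 and -4.97 on RFF replicates 1 and 2. Both RFF11 arrays lay well above both RFF arrays, and the gap was far wider than the distance between arrays of a genotype. Epha2 rose by 2.14 on the log2 scale (SE 0.12), or 4.42-fold, with means of -2.87 ± 0.21 in RFF11 cells and -5.01 ± 0.06 in RFF cells (SD, n = 2 each). The gene was dim in RFF cells. A correction that subtracts a modelled background from the median signal and then adds 50 (normexp) gave 1.12. Without 1 array the change was between 1.99 and 2.29.

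Unc5b is a netrin receptor of the repulsive kind, known in blood vessel sprouting and on leukocytes. It read -3.60 and -3.79 on the RFF11 arrays and -5.17 and -5.57 on the RFF arrays. The RFF11 arrays again lay above both RFF arrays, and the RFF arrays differed from each other by more than the RFF11 arrays did. Unc5b rose by 1.68 (SE 0.16), or 3.20-fold, and by 0.86 with normexp. Without 1 array the change was between 1.48 and 1.88.

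Dscaml1, a homophilic adhesion protein of neurons and a relative of the netrin receptor Dscam, moved the other way. It read -4.03 and -4.05 in RFF11 cells and -2.69 and -2.70 in RFF cells. Arrays of a genotype were nearly equal and the genotypes did not overlap. Dscaml1 fell by 1.34 (SE 0.05), a 2.54-fold lower signal, and by 0.88 with normexp. Only 1 of its 2 probes was well above background, so the change rests on that probe. The other was not well above background on any array (means -7.51 in RFF11 and -7.32 in RFF cells). The measured probe could not be checked against the genome, so expression of Dscaml1 is not shown. Dscam itself read 1.92 and 1.88 in RFF11 cells, against 1.47 and 1.42 in RFF cells, a change of 0.45 (SE 0.06, limma adjusted p = 0.0548) that did not pass.

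**Figure D2:**
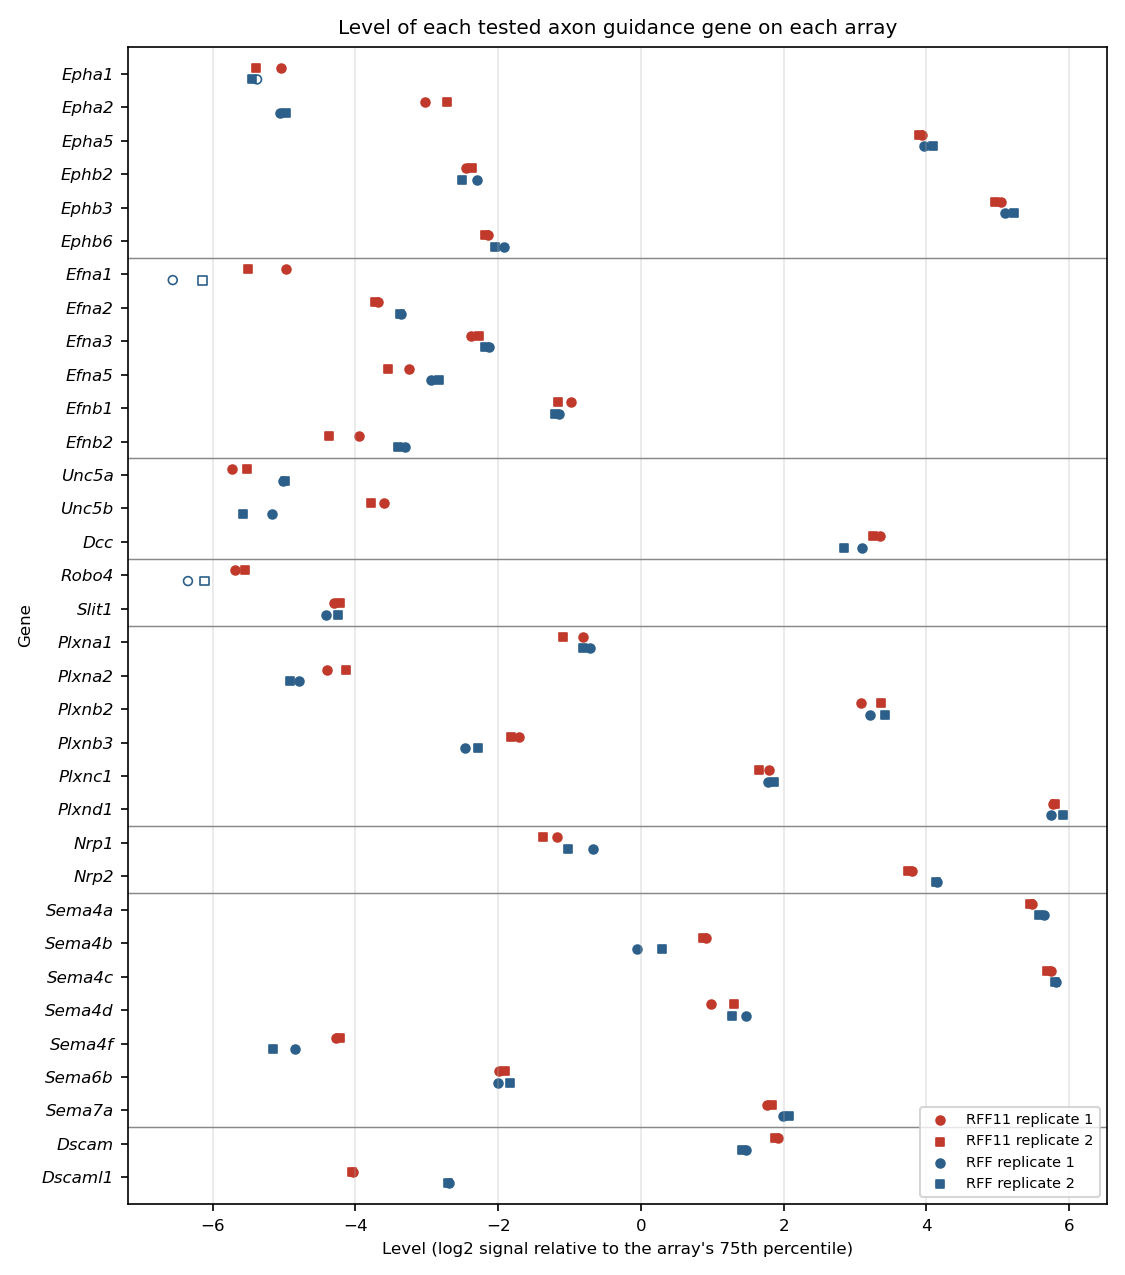
Levels (log2, 0 at the 75th percentile of the array) of the 34 tested axon guidance genes on each array, with RFF11 in red above RFF in blue and circles and squares for replicates 1 and 2; open symbols were not well above background. Epha2 and Unc5b stand to the right in RFF11 cells and Dscaml1 to the left, while 22 of the 34 genes differ by less than 0.5 between the genotype means. Probes differ in brightness, so positions of different genes are not compared.

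The start regions of Epha2 and Unc5b are shown because Rbpj binds DNA at a short known core, TGGGAA, often preceded by a G (GTGGGAA), and 2 members that hold it are shown beside them. Windows of 250 bases before to 50 after a RefSeq (GRCm38.p6) start were at hand for 48 of the 56 genes. Dscaml1 had none and was not searched. Epha2 lies at chr4:141300971-141301270 on the plus strand and Unc5b at chr10:60831532-60831831 on the minus strand. Sema4a (a start at chr3:88461133-88461432) and Plxnb2 (a start at chr15:89180739-89181038) both lie on the minus strand. Sequences run 5′ to 3′ along the gene, and capitals mark the letters TGGGAA or GTGGGAA on either strand.
Epha2: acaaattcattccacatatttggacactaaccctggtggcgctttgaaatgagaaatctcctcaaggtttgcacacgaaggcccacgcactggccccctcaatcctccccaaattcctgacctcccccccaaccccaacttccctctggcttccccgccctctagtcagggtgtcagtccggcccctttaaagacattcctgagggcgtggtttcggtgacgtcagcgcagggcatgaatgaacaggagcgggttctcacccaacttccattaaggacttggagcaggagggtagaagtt
Unc5b: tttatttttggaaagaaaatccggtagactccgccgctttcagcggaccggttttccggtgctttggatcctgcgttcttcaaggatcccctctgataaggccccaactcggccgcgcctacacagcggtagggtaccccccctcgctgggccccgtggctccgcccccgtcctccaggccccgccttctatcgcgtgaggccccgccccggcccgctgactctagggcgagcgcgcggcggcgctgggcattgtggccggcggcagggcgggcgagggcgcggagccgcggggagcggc
Sema4a: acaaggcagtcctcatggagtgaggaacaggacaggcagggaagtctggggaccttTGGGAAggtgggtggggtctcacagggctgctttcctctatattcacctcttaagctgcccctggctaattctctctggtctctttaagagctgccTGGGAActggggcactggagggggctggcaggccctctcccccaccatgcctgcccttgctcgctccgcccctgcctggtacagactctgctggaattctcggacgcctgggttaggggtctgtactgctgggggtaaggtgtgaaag
Plxnb2: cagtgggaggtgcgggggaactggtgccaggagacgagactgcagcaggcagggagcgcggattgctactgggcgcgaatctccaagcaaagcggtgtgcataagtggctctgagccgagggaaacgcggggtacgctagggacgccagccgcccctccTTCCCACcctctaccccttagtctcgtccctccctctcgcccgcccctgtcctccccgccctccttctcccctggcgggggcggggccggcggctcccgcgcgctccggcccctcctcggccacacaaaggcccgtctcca

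The windows of Epha2 and Unc5b held neither string, which says only that these letters are not in these 300 bases. TGGGAA was found on either strand in the windows of 11 of the 48 genes (22.9%), against 28.3% of 27025 genes with a window. The longer GTGGGAA, which contains it, was found in 3 of the 48 (6.25%), against 7.25% of all, and these were Epha7, Ntn4 and Plxnb2. In the Sema4a window TGGGAA began at -194 and -98 relative to the start, and in the Plxnb2 window the match, on the opposite strand, lay at -91. Other start regions of Sema4a and Plxnb2 held none. The 6 tested genes that held TGGGAA in at least 1 window were Efna3, Efnb1, Plxnb2, Plxnc1, Sema4a and Sema4d, and their changes lay between -0.23 and 0.10. A match is a string of letters and not a site at which binding was measured.

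Of the 6 ephrin receptors tested, 1 passed, Epha2, and the other 5 changed by less than 0.5. Epha1 read -5.04 and -5.39 on the RFF11 arrays, against -5.38 and -5.45 on the RFF arrays, with RFF replicate 1 not well above background. It entered the test through the RFF11 arrays, and its groups overlapped (0.20, SE 0.14). Epha5, a receptor best known in brain, read 3.94 and 3.89 in RFF11 cells and 3.96 and 4.10 in RFF cells. That reading comes from 1 of its 2 probes, and the other was not well above background on any array (RFF11 mean -7.52). The bright probe could not be checked against the genome, so strong expression of Epha5 is not shown. Ephb3 read 5.05 and 4.96 in RFF11 cells, against 5.10 and 5.22 in RFF cells (-0.16, SE 0.07). Ephb2 was close to equal, at -2.45 and -2.37 in RFF11 cells against -2.30 and -2.51 in RFF cells. Ephb6, whose kinase domain is known to be inactive, was at -2.14 and -2.18 in RFF11 cells and -1.92 and -2.05 in RFF cells. The second probe of Ephb6 was not well above background on any array.

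None of the 6 ephrins tested passed. Efna1, a ligand of Epha2, was well above background on the 2 RFF11 arrays alone, at -4.96 and -5.51, against -6.56 and -6.14 on the RFF arrays. It entered the test through the genotype in which it was brighter, so a difference was built in and its limma adjusted p of 0.105 supports nothing. Set against the dimmest level measured on each RFF array, its signal was 1.34-fold higher in RFF11 cells, a lower limit without an error. With normexp its log2 change was 0.31. Efnb2, a transmembrane ligand of the B receptors and a known Notch target of arterial endothelium, read -3.95 and -4.36 in RFF11 cells, against -3.31 and -3.40 in RFF cells. Both RFF11 arrays lay below both RFF arrays, a change of -0.81 (SE 0.16, limma adjusted p = 0.0867) that did not pass and was -0.52 with normexp. Only 1 of its 2 probes was measured.

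The A-type ligands Efna2, Efna3 and Efna5 lay lower in RFF11 cells without passing. Efna5 read -3.24 and -3.55 in RFF11 cells and -2.94 and -2.82 in RFF cells (-0.52, SE 0.13). Efna2 read -3.69 and -3.73 in RFF11 cells against -3.36 and -3.37 in RFF cells (-0.34, SE 0.05, limma adjusted p = 0.0678). Efna3 read -2.39 and -2.27 in RFF11 cells and -2.12 and -2.19 in RFF cells (-0.17, SE 0.07). These 3 were lower on both RFF11 arrays than on both RFF arrays, whereas Efnb1, at -0.98 and -1.16 in RFF11 cells and -1.14 and -1.21 in RFF cells, overlapped. The second probe of Efna3 was not well above background on any array. Efna4 was well above background on 1 array of each genotype and was not tested.

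Of the 3 netrin receptors tested Unc5b alone passed. Unc5a, its relative, dim in both genotypes, read -5.72 and -5.52 in RFF11 cells and -5.01 and -4.98 in RFF cells. Its arrays did not overlap, yet the change of -0.62 (SE 0.09, limma adjusted p = 0.0620) did not pass, shrank to -0.18 with normexp, and passed with quantile or median scaling of the arrays. Dcc, the attractive netrin receptor, read 3.35 and 3.25 in RFF11 cells, against 3.09 and 2.85 in RFF cells (0.33, SE 0.11). Only 1 of its 3 probes was well above background and the other 2 were not on any array, with RFF11 means of -7.65 and -7.91. The bright probe could not be checked against the genome, so strong expression of Dcc is not shown. The ligands Ntn1 and Ntn4 were not measured above background in either genotype.

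Robo4, a Robo receptor known from endothelium, was well above background on the 2 RFF11 arrays alone, at -5.68 and -5.54, against -6.34 and -6.11 in RFF cells. Against the dimmest level measured on each RFF array, its signal was at least 1.03-fold higher in RFF11 cells. This lower limit leaves little above the floor. Like Efna1 it entered the test through the genotype in which it was brighter, so a difference was built in and its limma adjusted p of 0.0780 supports nothing. The ligand Slit1 was at -4.29 and -4.21 in RFF11 cells, against -4.41 and -4.24 in RFF cells, and overlapped. Slit2 was above background on replicate 2 of each genotype, at -3.68 in RFF11 and -5.49 in RFF cells, and not on replicate 1 of either, at -6.04 in RFF11 and -6.07 in RFF cells. Arrays of one genotype thus lay far apart for Slit2, and it was not tested.

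No plexin passed. Plxnb3 read -1.71 and -1.81 on the RFF11 arrays and -2.46 and -2.29 on the RFF arrays, a change of 0.62 (SE 0.09, limma adjusted p = 0.0640). Plxna2 read -4.40 and -4.13 in RFF11 cells, against -4.79 and -4.92 in RFF cells (0.59, SE 0.12, and 0.28 with normexp). For both genes the RFF11 arrays lay above the RFF arrays. Plxna1, known on dendritic cells for their contact with T cells, read -0.80 and -1.09 in RFF11 cells and -0.71 and -0.80 in RFF cells (-0.19, SE 0.12). Plxnd1, a receptor of Sema3e, read 5.78 and 5.80 in RFF11 cells, against 5.74 and 5.91 in RFF cells (-0.04, SE 0.08), and its second probe also differed little, by -0.05. Plxnb2, a receptor of Sema4c and Sema4d, read 3.08 and 3.37 in RFF11 cells against 3.21 and 3.42 in RFF cells, and Plxnc1, the receptor of Sema7a, read 1.80 and 1.65 in RFF11 cells and 1.77 and 1.87 in RFF cells. These last 3 overlapped between genotypes, and Plxnd1 and Plxnb2 changed sign under some alternatives.

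Both neuropilins lay lower in RFF11 cells without passing. Nrp2 read 3.79 and 3.74 on the RFF11 arrays and 4.14 and 4.13 on the RFF arrays. Arrays of a genotype differed by far less than the genotypes did, and the change of -0.37 (SE 0.06, limma adjusted p = 0.0644) was -0.41 on the second probe, which carries the accession of another transcript. Nrp1, which is also a VEGF co-receptor, read -1.17 and -1.37 in RFF11 cells, against -0.67 and -1.02 in RFF cells (-0.43, SE 0.15). Its change was -0.25 without RFF replicate 1 and -0.605 without RFF replicate 2. The class 3 semaphorins that use neuropilins were mostly too dim, with Sema3a and Sema3c on no array and Sema3f on RFF11 replicate 1 alone.

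Of the 7 semaphorins tested none passed, and all belong to the classes bound to the membrane. Sema4b read 0.91 and 0.86 in RFF11 cells, against -0.05 and 0.30 in RFF cells, a change of 0.76 (SE 0.13, limma adjusted p = 0.0766) that was 0.76 with normexp too. Sema4f read -4.27 and -4.21 in RFF11 cells and -4.84 and -5.16 in RFF cells (0.76, SE 0.13, limma adjusted p = 0.0715, and 0.38 with normexp). For both, RFF11 arrays agreed closely and lay above both RFF arrays. Sema4a, a ligand of dendritic cells that costimulates T cells in mice, read 5.48 and 5.45 in RFF11 cells, against 5.65 and 5.58 in RFF cells (-0.15, SE 0.06). Sema7a, a lipid-anchored ligand, read 1.77 and 1.83 in RFF11 cells and 1.99 and 2.07 in RFF cells (-0.23, SE 0.06). Sema4c read 5.74 and 5.68 in RFF11 cells against 5.81 and 5.80 in RFF cells (-0.09, SE 0.06). These 3 were lower on both RFF11 arrays by small amounts, whereas Sema4d, at 0.98 and 1.30 in RFF11 cells and 1.48 and 1.27 in RFF cells, and Sema6b, at -1.99 and -1.90 in RFF11 cells and -2.00 and -1.83 in RFF cells, overlapped.

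**Figure D3:**
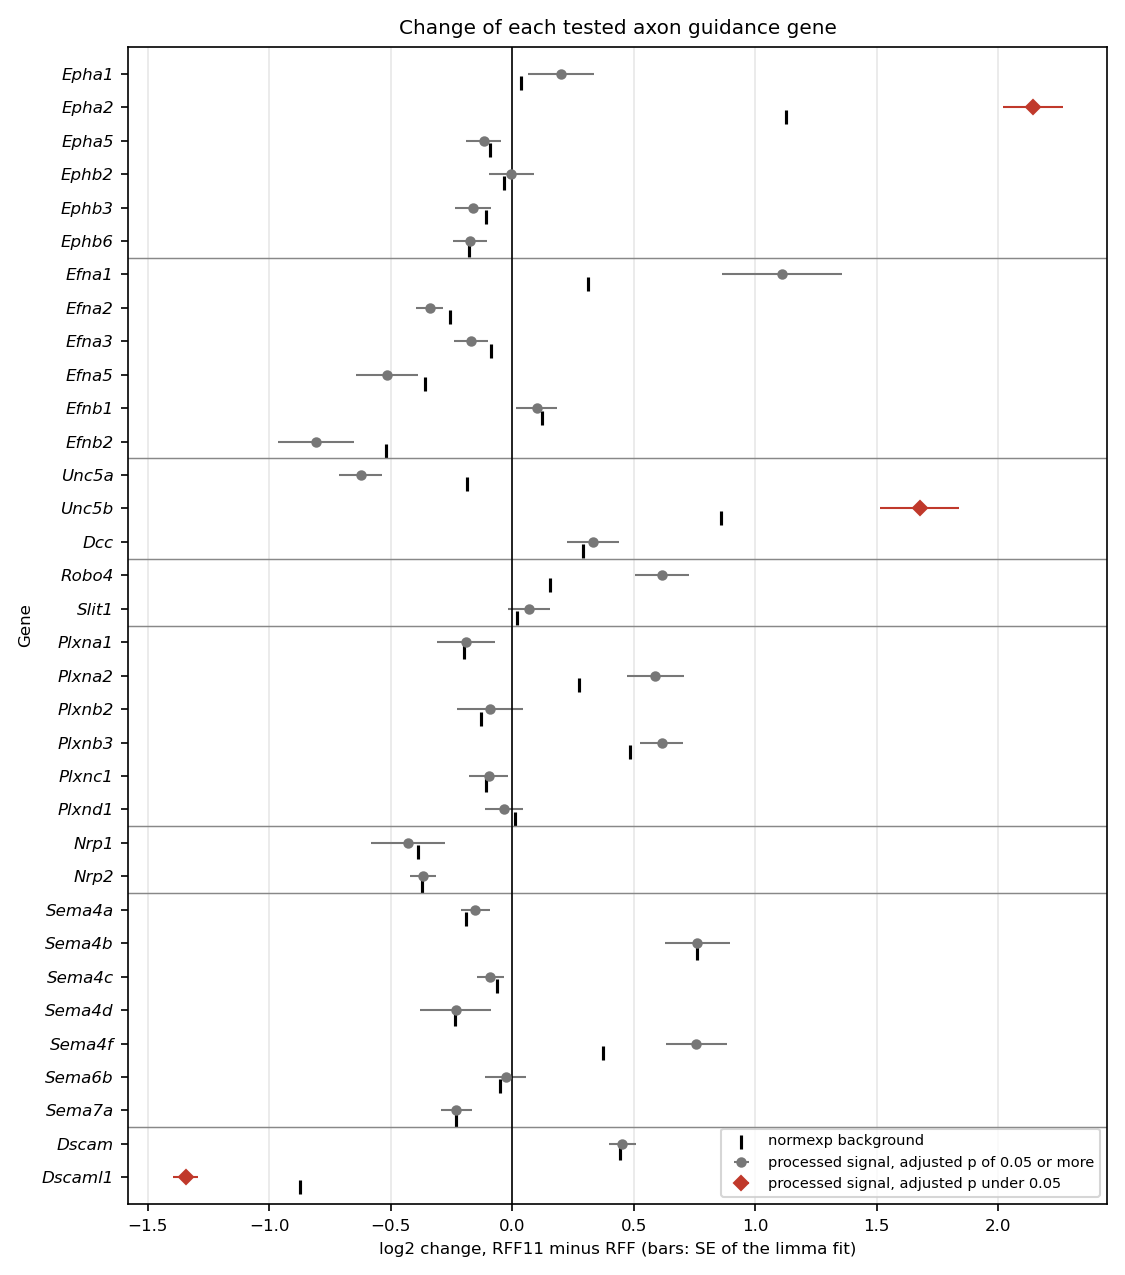
The log2 change (RFF11 minus RFF) of the 34 tested axon guidance genes, with bars for the SE of the limma fit, red diamonds for the 3 genes that passed and black ticks for the change with normexp. Epha2 at 2.14 and Unc5b at 1.68 stand apart on the right and Dscaml1 at -1.34 on the left, and the ticks of dim genes such as Efna1 lie closer to 0.

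Counted over the 34 tested, both RFF11 arrays lay above both RFF arrays for 10 genes (29.4%) and below them for 15 (44.1%), and 9 overlapped. Over all genes tested the shares were 26.8% above and 32.3% below. The 10 include Efna1 and Robo4, which entered the test through their RFF11 arrays alone. Of the 31 genes measured on all 4 arrays, Epha2, Unc5b and Dscaml1 changed by at least 2-fold, and 22 of the 34 tested changed by less than 0.5 on the log2 scale. Besides the 3 that passed, 9 genes measured on all arrays had an adjusted p under 0.1 in the limma fit, of which Dscam, Plxnb3, Sema4f, Sema4b and Plxna2 lay higher and Unc5a, Nrp2, Efna2 and Efnb2 lower in RFF11 cells. Of the 15 genes measured on all arrays whose change was 0.3 or more, 7 were more than 1.5 times smaller with normexp, all of them dim: Epha2, Efnb2, Unc5a, Unc5b, Plxna2, Sema4f and Dscaml1. In the 16 genes with more than 1 probe, every probe was measured on all arrays for Nrp2, Plxnc1 and Plxnd1, some for 6 and none for 7.

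Other genes of these pathways, in 4 lists, gave 2 calls, where 1.88% of all genes tested passed. Of 33 further guidance receptors and ligands 9 were tested and none passed, the farthest from 0 being the adhesion protein Flrt2, an Unc5 ligand, at -4.14 and -4.10 in RFF11 cells and -3.36 and -3.58 in RFF cells (-0.66, SE 0.09). Of 20 genes tested that act inside the cell below ephrin receptors none passed, with the adaptor Grb7 farthest from 0 (0.39). Of 23 below netrin and Slit receptors none passed, with the actin-binding Ablim1 farthest from 0 (0.78). Grb7 was not well above background on RFF replicate 1. It entered the test through its brighter RFF11 arrays, and its change was 0.22 with normexp. Among 33 tested that act with plexins or semaphorins, 1 rose and 1 fell. Limk2, a kinase that acts on the actin-severing protein cofilin, rose by 0.59 (SE 0.06, limma adjusted p = 0.0450), at -3.12 and -3.02 in RFF11 cells and -3.64 and -3.68 in RFF cells. Trem2, a myeloid receptor known to form a complex with Plxna1, fell by 0.53 (SE 0.06, limma adjusted p = 0.0445), at 4.96 and 4.90 in RFF11 cells and 5.44 and 5.47 in RFF cells. With normexp the change of Limk2 was 0.42 and that of Trem2 was -0.51. The medians of these 4 lists lay between -0.16 and 0.03.

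Markers of other cells that could carry these genes were read on the same arrays. Of 11 endothelial markers Cdh5, Tek, Tie1, Emcn and Cldn5 were not well above background on any array, and the summed signal of the list, with 1 for the 75th percentile, was 17.1 and 15.1 on the RFF11 arrays and 18.5 and 18.6 on the RFF arrays. None of its 6 tested members passed. The one with the farthest fitted value, Esam, was well above background on the RFF11 arrays alone. It too entered the test through those arrays, so a difference was built in. Against the dimmest level measured on each RFF array, its signal was 1.79-fold higher in RFF11 cells, a lower limit without an error. With normexp its log2 change was 0.32. Of 8 neuronal markers 6 were on no array, including Rbfox3, Tubb3 and Map2, and the list summed to 2.54 and 2.57 in RFF11 cells, against 2.31 and 2.21 in RFF cells, with Snap25 farthest from 0 (0.31). Stromal markers (Col3a1, Pdgfra, Pdgfrb and Lum on no array) summed to 1.74 and 1.96 in RFF11 cells and 1.76 and 1.77 in RFF cells. Sparc was farthest from 0 in that list (-0.60, SE 0.67), and its groups overlapped. Epithelial markers summed to 1.32 and 1.39 in RFF11 cells and 1.05 and 0.98 in RFF cells, with Krt8 and Krt18 on no array and Epcam farthest from 0 (0.48). None of the neuronal, stromal and epithelial genes passed.

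Lists of other blood cells were read in the same way. Neutrophil markers summed to 44.8 and 36.0 on the RFF11 arrays, against 21.6 and 24.8 on the RFF arrays, with Retnlg on no array. Among 7 tested Mpo rose by 0.74 and Ngp by 0.54 (limma adjusted p = 0.0378 and 0.0445). With normexp these changes were 0.45 and 0.41. Mast cell and basophil markers summed to 2.004 and 1.713 in RFF11 cells and 1.319 and 1.411 in RFF cells, with Fcer1a and Ms4a2 on no array, and none of 4 tested passed, Mcpt8 being farthest from 0 (1.13). Plasmacytoid dendritic cell markers summed to 95.1 and 96.5 in RFF11 cells and 69.8 and 84.1 in RFF cells, and none of 5 tested passed, Spib being farthest from 0 (-1.55). T, B and natural killer cell markers summed to 3.300 and 3.731 in RFF11 cells and 4.000 and 3.975 in RFF cells. Of that list Klrb1c rose by 1.14 (limma adjusted p = 0.0379) among 4 tested, and Ms4a1, Ncr1 and Cd8a were on no array. Klrb1c was dim (means -3.48 in RFF11 and -4.62 in RFF cells), and its change was 0.595 with normexp. Macrophage markers summed to 190.2 and 187.5 in RFF11 cells and 182.7 and 183.8 in RFF cells, and Fcgr1 fell by 0.61 (limma adjusted p = 0.0424) among 5 tested. Dendritic cell markers summed to 812.9 and 761.8 in RFF11 cells and 865.1 and 833.3 in RFF cells, with none of 9 passing and Ccr7 farthest from 0 (-0.48). The neutrophil, mast cell, plasmacytoid, macrophage, neuronal and epithelial sums were higher on both RFF11 arrays than on both RFF arrays. So were Epha2 and Unc5b. The dendritic cell, endothelial and T, B and natural killer cell sums were lower on both, and the stromal sum overlapped. A sum rests mostly on its brightest genes. The median change of tested markers was -0.01 for the macrophage and plasmacytoid lists and -0.17 for the epithelial list. It was 0.71 for the neutrophil, 0.51 for the mast cell and 0.05 for the neuronal list. For the T, B and natural killer cell list it was 0.25, opposite in direction to the sum. The dendritic cell list had a median of -0.07, the endothelial list -0.04 and the stromal list -0.18. The part of any of these cells in the change of an axon guidance gene was not tested.

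**Figure D4:**
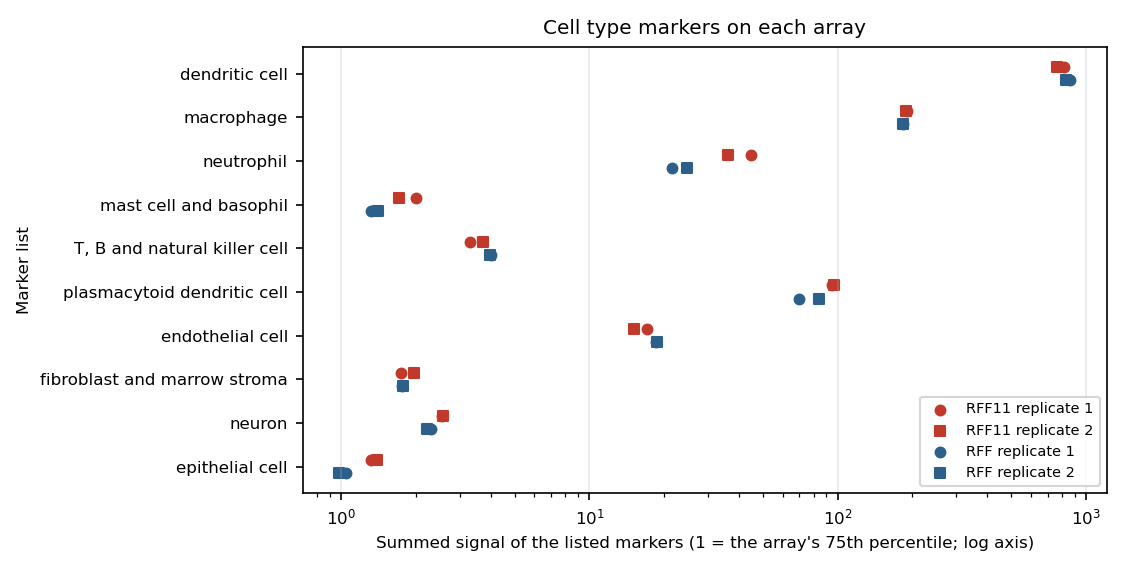
Summed signal of each list of cell type markers on each array, on a log axis where 1 is the 75th percentile of the array, with RFF11 in red and RFF in blue and circles and squares for replicates 1 and 2. Neutrophil markers lie at 44.8 and 36.0 on the RFF11 arrays and at 21.6 and 24.8 on the RFF arrays, while the endothelial list lies slightly lower in RFF11 cells.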

How the data were processed

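Per the labels' protocols, each sample was 150 ng of RNA from a pool of 4 mice per genotype, labelled with Cy3 and read on its own one-colour Agilent mouse array. Spot intensity was extracted with Agilent Feature Extraction 10.7.1.1, per the submitters' processing notes. The deposited intensity is its processed signal, and the file headers record fits of spatial and multiplicative trends. The arrays' own flags mark spots well above background, outlying (left out) or saturated (0 here). The log2 table the authors deposited was made in a way that is not given in the sources used here. Its columns followed the log2 processed signals after scaling and centring on each probe's value over the arrays (Pearson r at least 0.9999 in all 4 columns, the same direction, column medians -0.03 to 0.05), and served as an alternative. Columns of other samples numbered 0.

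The log2 of the processed signal was set to 0 at the 75th percentile within an array, averaging replicate spots. A probe was kept if flagged well above background in both replicates of a genotype, and the probe with the highest mean stood for a gene. Genotypes were compared with limma 3.58.1 in R 4.3.3 (lmFit, eBayes, Benjamini-Hochberg over 17968 genes, threshold 0.05). With 2 arrays a genotype, their number limits the precision, and SD values are between those 2. The arrays hold no mean signal, so normexp (offset 50) ran on the median signal. All 4 lay on 1 slide, where position and genotype cannot be told apart. The procedure was tested on simulated data with independent noise and no effect of pool or slide, so the test cannot speak to either. Probes were named through RefSeq accessions of GRCm38.p6: 26055 of 39429 received 1 symbol, 0 several and 13374 none.

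The genes, the further lists and the tests were chosen with earlier results of these data known. A marker gene is not reported here by name. The rule for naming was Rbpj and Itgax, every listed gene that passed or was measured on all arrays, and in each further list those that passed or else the 1 farthest from 0. Alternatives were normexp, quantile and median scaling, no or a stricter filter, the mean of a gene's probes, the deposited table, a trended and robust variance prior, leaving out each array, and the replicate number as a block. The numbers 1 and 2 are shared by both genotypes, but nothing says that they pair arrays.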

Additional observations from a re-analysis of the deposited data

How the results depend on the processing

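The count of axon guidance genes that passed (3 of 34) was 3 to 4 with quantile or median scaling, the stricter filter, the mean of a gene's probes and the deposited table, and always held Epha2, Unc5b and Dscaml1. It was 8 with normexp and 8 with the trended and robust prior, both adding Dscam, Efnb2, Nrp2, Plxnb3 and Sema4b. It was 0 without the filter on dim probes, where 18 of 56 had an unadjusted p under 0.05, and 0 when any 1 array was left out (0 to 0), with 16 to 17 such genes. Over all genes 338 passed. That count was 890 with normexp, 1548 with the trended and robust prior, 0 without the filter (3655 at an unadjusted p under 0.05) and 0 to 1 when 1 array was left out (2975 to 3505 at an unadjusted p under 0.05). Of the 338, 55.3% were higher in RFF11 cells, against 44.8% of the 1548. With the replicate number as a block limma called 0 genes and 0 of the axon guidance genes, with 3677 and 18 at an unadjusted p under 0.05. Deviations of same-numbered arrays from their genotype means correlated at -0.05 across genes.

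Of the 34 genes 29 kept their direction under all 13 alternatives (12 for Epha1, Efna1 and Robo4, which the stricter filter removed). The other 5 lay near 0 and changed sign. Ephb2 was 0.0006 with the deposited table, and Plxnd1 was 0.011 with normexp and 0.0275 with quantile scaling. With 1 array left out, Ephb2 lay between -0.1079 and 0.1011, Slit1 between -0.0169 and 0.1544, Plxnb2 between -0.2353 and 0.052, Plxnd1 between -0.1171 and 0.0467 and Sema6b between -0.1122 and 0.057. The causes were not tested. A scaling moved the median of all genes by less than 0.05. Signal over background limits Efna1, Robo4, Epha1, Unc5a and the RFF levels of Epha2 and Unc5b.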
